A study of Mus musculus with 32 samples.

Results

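Per1, Per2 and Per3 are the mouse period genes, and they were read in the livers of 32 male wild-type C57BL/6 mice on Agilent arrays of 1 colour that each took 1 mouse. The array probes were assigned through their RefSeq identifiers, which left 1 probe for each of the 3 genes (NM_011065 for Per1, NM_011066 for Per2 and NM_011067 for Per3) among 23109 genes tested. The jet-lagged group held 16 singly housed mice that had been moved, from 4 weeks of age, back and forth between 2 rooms whose lights came on 8 h apart. The steady group held 16 singly housed mice kept in 12 h light and 12 h dark throughout. Sampling was at ZT (zeitgeber time, counted in hours from lights on) 2, 10 and 18, at 30 and 12 weeks of age, which gave 12 groups with 2 mice in each ZT2 group and 3 in every other. How a jet-lagged mouse's ZT relates to its latest room change is not given in the labels, so mice of that schedule are placed by labelled time alone. All mice carried the same wild-type genotype, and whole liver was sampled, so fewer cells of a type and less RNA per cell cannot be told apart.

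The period proteins are repressors in the circadian feedback loop. The activators BMAL1 and CLOCK bind E-boxes in the period and cryptochrome genes, PER and CRY proteins then enter the nucleus and shut the activators off, and casein kinase 1 marks PER for destruction so that the next cycle can start. Per1 and Per2 are also immediate targets of outside signals: glucocorticoids, cAMP signalling through CREB and, for Per2 in liver, body temperature through heat shock factor 1. Per3 is thought to contribute less to the oscillator itself than its paralogs.

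The promoters of Per1 and Per3, the 2 of 3 members matched in the RefSeq promoter table, are shown because the levels of both differed between schedules at single times of day; Per2 was not matched. They come from RefSeq (build GRCm38.p6), run 5′ to 3′ on the gene's own strand, and hold 250 bases before and 50 bases after an annotated start. Capitals mark matches, on either strand, to an E-box (CACGTG), a related E-box (CACGTT), a D-box (TTATGTAA, or TTANGNAA with 2 free letters, which every TTATGTAA also matches) and a cAMP response element (TGACGTCA, or TGACGTC without its last letter, which every TGACGTCA also matches). RefSeq gives Per1 a pair of starts and Per3 a single one. The printed stretches lie at chr11:69098699-69098998 (+) and chr11:69099902-69100201 (+) for Per1, and at chr4:151044616-151044915 (-) for Per3. The motifs were chosen with the sequences in view.
Per1 first start: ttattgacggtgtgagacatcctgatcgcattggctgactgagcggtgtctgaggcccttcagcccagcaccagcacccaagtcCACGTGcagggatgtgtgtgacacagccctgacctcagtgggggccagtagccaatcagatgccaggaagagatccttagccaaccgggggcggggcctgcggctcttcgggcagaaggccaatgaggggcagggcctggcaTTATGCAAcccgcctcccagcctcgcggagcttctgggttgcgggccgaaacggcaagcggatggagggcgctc
Per1 second start: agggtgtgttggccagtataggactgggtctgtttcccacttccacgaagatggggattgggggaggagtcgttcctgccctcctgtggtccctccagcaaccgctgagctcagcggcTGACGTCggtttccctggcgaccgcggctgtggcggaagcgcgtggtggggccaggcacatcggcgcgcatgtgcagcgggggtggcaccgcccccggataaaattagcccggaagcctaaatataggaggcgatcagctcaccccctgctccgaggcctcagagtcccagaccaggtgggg
Per3: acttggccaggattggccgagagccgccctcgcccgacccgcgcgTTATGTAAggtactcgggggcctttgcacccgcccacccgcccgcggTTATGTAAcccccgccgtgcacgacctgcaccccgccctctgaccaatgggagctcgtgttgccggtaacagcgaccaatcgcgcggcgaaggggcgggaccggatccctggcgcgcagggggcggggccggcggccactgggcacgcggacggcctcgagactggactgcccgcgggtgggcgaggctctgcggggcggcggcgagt

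The first Per1 promoter held 1 CACGTG, at position -166 from the start, and 1 match to TTANGNAA at -24. The second Per1 promoter held 1 TGACGTC, at -132, and no match to the other letters searched. The Per3 promoter held 2 copies of TTATGTAA, at -205 and -158, and no match to either E-box or to the cAMP response element. Among 32851 promoters of the same length, CACGTG was found in 7.15%, CACGTT in 4.68%, TTATGTAA in 0.938%, TTANGNAA in 11.5%, TGACGTCA in 1.79% and TGACGTC in 3.21%. A core of the REV-ERB and ROR element (AGGTCA, in 16.3% of these promoters, not capitalised above) was found once, on the opposite strand of the first Per1 promoter at -137. D-boxes are the sites of DBP, TEF and HLF and of their antagonist NFIL3, whose genes are described with the other clock genes further on.

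Levels are log2 of the processed signal relative to the array's own 75th percentile, so that 0 marks the 75th percentile of the spots on that array. Between 43.4% and 58.1% of the probes on an array were well above background. Per1 was well above background on all 32 arrays. Per2 missed that mark on 1 of 2 arrays of jet-lagged and 1 of 2 arrays of steady mice at ZT2 and 12 weeks. Per3 missed it on both arrays of the steady ZT2 group at each age and on 1 of 3 arrays of steady mice at ZT18 and 12 weeks, and its change against a steady ZT2 group is therefore also given as a lower bound. For that bound the Per3 level of the steady arrays was raised to the dimmest signal that still counted as well above background there. The bounds hold for the processed signal and were not tested. A p-value given beside a bound belongs to the levels as measured. All 10 hepatocyte markers were well above background on every array (mean level 8.26 to 8.94). Pancreatic acinar genes (13 of 14 listed markers measured) had a mean level above 0 on 7 of 16 jet-lagged arrays and 3 of 16 steady arrays, with summed signals of 363 to 63956 in jet-lagged livers and 413 to 22934 in steady livers. Skeletal muscle genes (12 of 12 measured) were above 0 on 7 jet-lagged and 6 steady arrays, with summed signals of 254 to 56890 in jet-lagged livers and 319 to 24145 in steady livers, and all 6 steady ZT18 arrays were among them. On every array at least 3 acinar and at least 3 muscle markers were well above background. The jet-lagged ZT2 mouse 1 at 12 weeks was the only ZT2 array above 0 for the acinar markers (1.53).

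Per1 encodes a PER protein whose gene answers quickly to outside signals. At 30 weeks it stood at 1.96 and 0.94 at ZT2, at 3.40, 3.54 and 3.34 at ZT10 and at 3.68, 3.02 and 3.07 at ZT18 in jet-lagged livers. In steady livers of 30 weeks the levels were -0.47 and -0.73 at ZT2, 3.93, 3.62 and 3.68 at ZT10, and 2.14, 1.72 and 2.18 at ZT18. Steady mice therefore showed a low, a high and an intermediate time that did not overlap, whereas the jet-lagged ZT10 and ZT18 values overlapped. At 12 weeks Per1 stood at 0.02 and 2.19 at ZT2, at 3.11, 3.23 and 3.39 at ZT10 and at 3.25, 3.49 and 2.90 at ZT18 in jet-lagged livers. In steady livers of 12 weeks it stood at -0.67 and -0.48 at ZT2, at 3.70, 3.83 and 3.42 at ZT10 and at 2.60, 1.68 and 1.49 at ZT18. The 2 jet-lagged ZT2 mice of 12 weeks lay 2.18 apart and the 2 of 30 weeks 1.02 apart, against gaps of 0.20 (12 weeks) and 0.26 (30 weeks) for the steady ZT2 pairs. Within each age, every jet-lagged mouse lay above every steady one at ZT2 and ZT18, and below every steady one at ZT10.

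Per2 is the period gene whose mutation makes mouse behaviour lose its rhythm in constant darkness. At 30 weeks it stood at -1.21 and -2.60 at ZT2, at -0.77, 0.63 and -0.49 at ZT10 and at -0.41, -0.31 and -0.09 at ZT18 in jet-lagged livers. In steady livers of 30 weeks it stood at -2.62 and -2.58 at ZT2, at -1.17, -1.20 and -0.24 at ZT10 and at -0.87, -0.61 and -0.63 at ZT18. ZT2 was the low time under both schedules, and ZT10 and ZT18 overlapped under both. At 12 weeks the levels were -3.13 and -3.41 at ZT2 (the second not well above background), -0.80, -0.83 and -0.58 at ZT10, and -0.08, -0.30 and 0.06 at ZT18 in jet-lagged livers. In steady livers of 12 weeks they were -4.13 and -3.17 at ZT2 (the first not well above background), -0.50, -0.57 and -0.78 at ZT10, and -0.63, -0.39 and -0.33 at ZT18. The jet-lagged and steady mice overlapped at ZT2 and ZT10 at both ages, and at ZT18 every jet-lagged mouse lay above every steady one within each age.

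Per3 encodes the third PER protein, and its low time in steady livers lay at background. At 30 weeks it stood at -1.41 and -3.18 at ZT2, at -1.36, -1.23 and -1.13 at ZT10 and at -1.56, -1.58 and -2.19 at ZT18 in jet-lagged livers. In steady livers of 30 weeks it stood at -5.23 and -6.18 at ZT2 (neither well above background), at -0.86, -1.27 and -1.13 at ZT10 and at -3.13, -2.61 and -2.18 at ZT18. Jet-lagged mouse 1 at ZT2 was close to the jet-lagged mice at ZT10 in Per3, and both steady ZT2 mice lay under every jet-lagged one. At 12 weeks the levels were -3.65 and -2.61 at ZT2, -0.98, -1.55 and -1.39 at ZT10, and -1.76, -1.72 and -2.06 at ZT18 in jet-lagged livers. In steady livers of 12 weeks they were -6.17 and -6.14 at ZT2 (neither well above background), -1.30, -1.11 and -0.81 at ZT10, and -2.90, -2.54 and -3.31 at ZT18. At ZT2 of both ages and at ZT18 of 12 weeks, every jet-lagged mouse lay above every steady one, and at ZT10 the schedules overlapped at both ages.

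**Figure D1:**
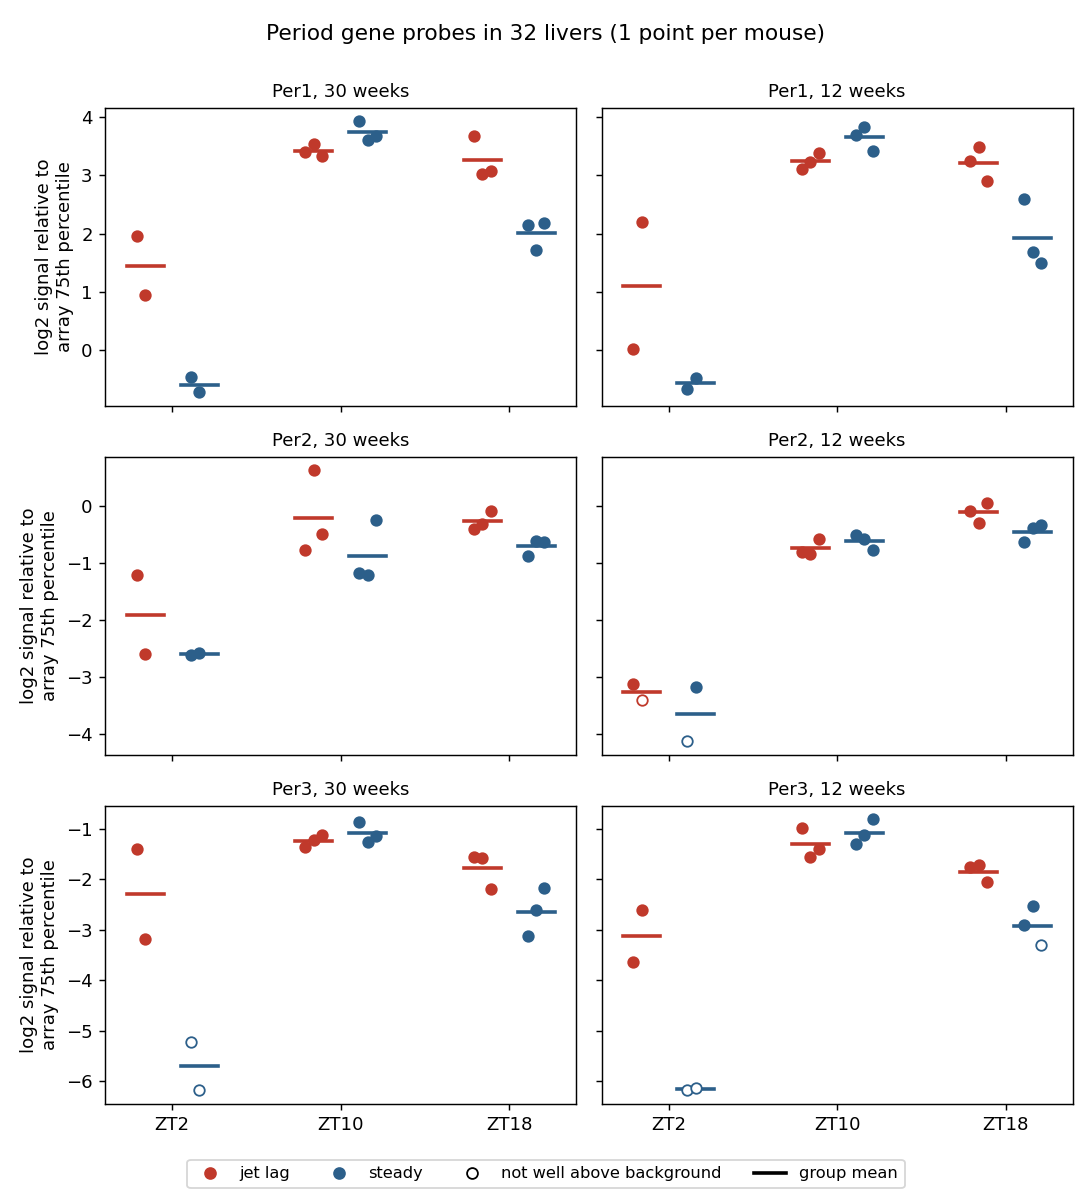
Level of the Per1, Per2 and Per3 probes (log2 signal relative to the array's 75th percentile, y axis) at ZT2, ZT10 and ZT18 (x axis), with 30 weeks on the left and 12 weeks on the right, jet-lagged mice in red and steady mice in blue. Each point is 1 mouse, bars are group means and open points were not well above background; the steady ZT2 mice of 30 weeks have Per3 at -5.23 and -6.18, the jet-lagged ones at -1.41 and -3.18.

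The first comparison asked whether a member varied over the 3 times within a schedule, from limma's F test over all genes with Benjamini-Hochberg adjustment. A range here is the fitted level at the highest time minus that at the lowest. The fit weights arrays by slide, so fitted differences depart from those of the plain values, by a large share where a difference is small. At ZT10 of 30 weeks Per1 had a fitted difference of -0.14 between plain means of 3.42 (jet-lagged) and 3.74 (steady). In jet-lagged livers 3 of 3 were called at 12 weeks, against 5.63% of genes, and 2 of 3 at 30 weeks, against 3.67%. In steady livers all 3 genes passed at 12 weeks, where 17.5% of all genes were called, and all 3 at 30 weeks, where 11.2% were. The median range over all genes was 0.29 in jet-lagged and 0.34 in steady livers at 12 weeks, and 0.27 in jet-lagged and 0.31 in steady livers at 30 weeks.

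For Per1 the fitted range was 2.18 under jet lag (adjusted p = 0.00285) and 4.26 under the steady schedule (adjusted p = 9.2e-07) at 12 weeks. At 30 weeks the Per1 range was 2.12 under jet lag (adjusted p = 0.00641) and 4.26 under the steady schedule (adjusted p = 2.1e-06). For Per2 the range was 3.26 under jet lag (adjusted p = 1.27e-05) and 3.16 under the steady schedule (adjusted p = 1.5e-06) at 12 weeks. The Per2 ranges of the 2 schedules lay closer to each other than those of Per1 or Per3. At 30 weeks the Per2 range was 1.70 under jet lag (adjusted p = 0.00679) and 1.82 under the steady schedule (adjusted p = 0.00125). For Per3 it was 1.88 under jet lag (adjusted p = 0.0128) and 5.09 under the steady schedule (adjusted p = 5.36e-08, a change of at least 7.75-fold) at 12 weeks. At 30 weeks the Per3 range was 1.15 under jet lag, which did not pass (adjusted p = 0.208), and 4.58 under the steady schedule (adjusted p = 4.47e-07, at least 8.11-fold). The Per2 call under jet lag at 12 weeks held on leaving out any 1 mouse (range 3.07 to 3.47), whereas the other jet-lag calls were lost without 1 ZT2 mouse. Without mouse 1 of 12 weeks, the acinar-rich one, Per1 had a range of 1.02 (adjusted p = 0.166) and Per3 one of 1.36 (adjusted p = 0.19). Without mouse 2 of 30 weeks Per1 had 1.73 and Per2 1.03, and without mouse 1 of 30 weeks Per3 had 2.03. Each of these fits leaves 1 mouse in a ZT2 group.

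Every member was lowest at ZT2 in all 4 combinations of schedule and age. Per1 and Per3 were highest at ZT10 in all 4, and Per2 was highest at ZT18 in 3 of 4, with jet-lagged mice of 30 weeks the exception, at ZT10. The step from ZT10 to ZT18 was tested on its own. In jet-lagged livers none of the 3 passed limma's test between ZT18 and ZT10 at either age, where 0.026% of all genes were called at 12 weeks and 0% at 30 weeks. At an unadjusted p under 0.05 there was 1 member at 12 weeks and 0 at 30 weeks. Per1 changed by -0.12 ± 0.37 at 12 weeks and -0.30 ± 0.37 at 30 weeks, Per2 by 0.65 ± 0.31 and -0.10 ± 0.31, and Per3 by -0.56 ± 0.36 and -0.67 ± 0.36. In steady livers Per1 fell by 1.98 ± 0.37 (SE) on the log2 scale at 12 weeks (adjusted p = 0.000809) and by 1.52 ± 0.37 at 30 weeks (adjusted p = 0.00899). Per3 fell by 2.08 ± 0.36 at 12 weeks (adjusted p = 0.000338) and by 1.39 ± 0.36 at 30 weeks (adjusted p = 0.013) over the same step. Per2 changed by 0.14 ± 0.31 at 12 weeks (adjusted p = 0.815) and by 0.08 ± 0.31 at 30 weeks (adjusted p = 0.921) and was not called. So 2 of 3 members fell at each age, where 6.54% of all genes fell at 12 weeks and 5.64% at 30 weeks. The 30-week calls were lost on leaving out 1 steady mouse: Per1 changed by -1.32 (adjusted p = 0.0585) without ZT18 mouse 2, and Per3 by -1.14 (adjusted p = 0.0824) without ZT18 mouse 1 and by -1.29 (adjusted p = 0.0602) without ZT10 mouse 1. They were also lost with slide as a fixed term (Per1 -1.21, adjusted p = 0.121, and Per3 -1.15, adjusted p = 0.132) and with acinar and muscle levels as covariates (Per1 -1.41, adjusted p = 0.125, and Per3 -1.16, adjusted p = 0.204), and Per3 also without the acinar-rich arrays (-1.41, adjusted p = 0.0825).

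From ZT2 to ZT10 all 3 rose in jet-lagged livers at 12 weeks, where 1.64% of genes rose, and Per1 and Per2 rose in them at 30 weeks, where 0.93% did. In steady livers all 3 rose at 12 weeks, where 4.15% of genes rose, and at 30 weeks, where 3.49% did. For Per3 in jet-lagged livers of 30 weeks that step was 1.15 ± 0.39 (adjusted p = 0.168). Without mouse 1 of that ZT2 group, which leaves 1 mouse there, it was 2.03. The steady steps and the jet-lagged Per2 step of 12 weeks were called on leaving out any 1 mouse, and each of the other jet-lagged calls was lost without a single mouse. Without the acinar-rich ZT2 mouse of 12 weeks the step was 1.02 for Per1 (adjusted p = 0.0951) and 1.36 for Per3 (adjusted p = 0.113). Without ZT2 mouse 2 of 30 weeks it was 1.73 for Per1 (adjusted p = 0.173) and 1.03 for Per2 (adjusted p = 0.35), and without ZT10 mouse 2 of that age 1.30 for Per2 (adjusted p = 0.0571). With slide as a fixed term the 30-week Per2 step was 1.71 (adjusted p = 0.0547). Leaving out all acinar-rich arrays leaves 1 mouse in the jet-lagged ZT2 and ZT10 groups of 12 weeks and in the jet-lagged ZT10 group of 30 weeks, so only sizes are given. The jet-lagged step was then 2.69 for Per2, 1.12 for Per1 and 1.96 for Per3 at 12 weeks. At 30 weeks it was 2.03 for Per1 and 1.29 for Per2.

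Ordered by mean level, the 12 groups of each gene formed runs of neighbours that lay within the spread between mice. For each gene 8 of 11 steps between neighbouring groups were smaller than the pooled SD within groups (0.47 for Per1, 0.42 for Per2 and 0.45 for Per3, 20 degrees of freedom), and at 9 of 11 steps the single mice overlapped. For Per1 the 4 groups of ZT10 and both jet-lagged ZT18 groups made up the top 6, at means of 3.74 to 3.21. A gap of 1.20 then separated them from the steady ZT18 groups, at 2.01 and 1.92, and the jet-lagged ZT2 groups, at 1.45 and 1.11. A second gap of 1.68 led down to the steady ZT2 groups, at -0.57 and -0.60. For Per2 the 8 groups of ZT10 and ZT18 ran from -0.11 to -0.87 with no step above 0.18, and the 4 ZT2 groups followed after a gap of 1.04. For Per3 the 4 ZT10 groups led, at -1.08 to -1.31, and the jet-lagged ZT2 group of 12 weeks, at -3.13, was followed last by the steady ZT2 groups, which were not well above background. Raised to the background level, those groups stood at -4.03 and -4.11, at least 0.90 below. The jet-lagged ZT2 group of 30 weeks, at -2.29, stood above both steady ZT18 groups, at -2.64 and -2.92, by less than the spread within it.

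The next comparison set jet-lagged against steady livers at each time. At ZT2 Per3 was higher under jet lag by 3.42 ± 0.43 at 30 weeks (adjusted p = 0.000204) and by 2.90 ± 0.43 at 12 weeks (adjusted p = 0.00247) as measured. With the steady levels raised to background, the untested bounds were at least 3.52-fold at 30 weeks and 1.87-fold at 12 weeks. Per1 was higher by 2.00 ± 0.45 at 30 weeks (4.01-fold, adjusted p = 0.0242). The Per1 difference of 12 weeks was 1.61 ± 0.45 (adjusted p = 0.155), and leaving out the acinar-rich jet-lagged mouse made it 2.77. That value rests on jet-lagged mouse 2 alone, whose array had the lowest share of probes well above background (43.4%). Per2 differed by 0.68 ± 0.38 at 30 weeks (adjusted p = 0.504) and 0.29 ± 0.38 at 12 weeks (adjusted p = 0.814), neither called. That is 2 of 3 members higher at 30 weeks, where 0.472% of genes were, and 1 of 3 at 12 weeks, where 0.0909% were. The 30-week Per1 call was lost without jet-lagged mouse 1 (1.62, adjusted p = 0.324), steady mouse 1 (2.10, adjusted p = 0.126) or steady mouse 2 (1.91, adjusted p = 0.171), and the 12-week Per3 call without steady mouse 1 (2.89, adjusted p = 0.0632). With slide as a fixed term Per3 had 2.76 at 12 weeks (adjusted p = 0.0611) and Per1 1.95 at 30 weeks (adjusted p = 0.112), and no slide held a jet-lagged and a steady ZT2 mouse of the same age. With normexp background correction, which compresses dim probes, the Per3 difference was 0.73 at 30 weeks (adjusted p = 0.108) and 0.58 at 12 weeks (adjusted p = 0.35).

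At ZT10, the time of the Per1 and Per3 maximum, none of the 3 members passed limma's test at 30 weeks, where 0.701% of genes were called, or at 12 weeks, where 1.77% were. At an unadjusted p under 0.05 there was 1 member at 30 weeks, Per2, and 0 at 12 weeks. Per1 differed by -0.14 ± 0.36 at 30 weeks and -0.46 ± 0.36 at 12 weeks, Per2 by 0.64 ± 0.30 and -0.11 ± 0.30, and Per3 by -0.01 ± 0.34 and -0.30 ± 0.34. Yet every jet-lagged Per1 value lay below every steady one within each age. The plain Per1 means were 3.42 in jet-lagged and 3.74 in steady livers at 30 weeks, and 3.25 and 3.65 at 12 weeks. The SE comes from a spread pooled over all 12 groups. Per1 had an SD of 0.10 to 0.21 within the ZT10 groups and 1.54 within the jet-lagged ZT2 group of 12 weeks. The pair of mice that shared a slide, time and age differed by -0.22 for Per1, 0.43 for Per2 and -0.10 for Per3 at 30 weeks, and by -0.31, -0.03 and -0.17 for the same genes at 12 weeks. The 4 jet-lagged ZT10 arrays above 0 for the acinar markers and the 4 above 0 for the muscle markers outnumbered the steady ones, 1 and 0, and with both marker levels as covariates Per1 had -0.037, Per2 0.78 and Per3 0.14 at 30 weeks, and Per1 -0.29, Per2 0.060 and Per3 -0.11 at 12 weeks, none called.

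At ZT18 Per1 was higher under jet lag by 1.39 ± 0.36 at 12 weeks (2.62-fold, adjusted p = 0.0365), so that 1 of 3 members was higher where 1.02% of genes were. At 30 weeks the Per1 difference was 1.09 ± 0.36 (adjusted p = 0.0964) and 0 of 3 members were called by limma, where 1.69% of genes were higher, with 1 member under an unadjusted p of 0.05. Per1 passed there in the authors' deposited table (1.41, adjusted p = 0.0122). The difference was 1.30 without the acinar-rich arrays and 1.24 without either jet-lagged ZT2 mouse of 12 weeks. These fits leave 1 mouse in groups outside this comparison, which then add nothing to the pooled spread. Per3 differed by 0.71 ± 0.34 at 30 weeks (adjusted p = 0.304) and 1.22 ± 0.34 at 12 weeks (adjusted p = 0.0566). The 12-week Per3 difference was called in 4 of 32 fits that left out a mouse, each time a mouse outside that comparison. Per2 differed by 0.47 ± 0.30 at 30 weeks (adjusted p = 0.481) and 0.39 ± 0.30 at 12 weeks (adjusted p = 0.558). The Per1 and Per3 differences at ZT2 and ZT18 stayed above 0 at both ages on leaving out any 1 mouse, the lowest being 0.46 for Per1 at ZT2 of 12 weeks. The Per1 call at ZT18 of 12 weeks was lost in 5 of 32 fits, without steady mouse 2 or 3 or any 1 jet-lagged mouse of that group (1.16 to 1.5, lowest adjusted p = 0.0563, highest adjusted p = 0.15). It was also lost with slide as a fixed term (1.54, adjusted p = 0.0883) and with no slide term (1.29, adjusted p = 0.0724). The same held with no filter on dim probes (1.39, adjusted p = 0.0698) and in the authors' deposited table (1.06, adjusted p = 0.0836). Without the acinar-rich arrays, which leaves 1 steady mouse in that group, the difference was 1.69. The pair that shared a slide differed by 1.36 for Per1, 0.52 for Per2 and 0.42 for Per3 at 30 weeks, and by 0.89, 0.33 and 1.18 for the same genes at 12 weeks. Muscle markers were above 0 on 3 of 6 jet-lagged and 6 of 6 steady ZT18 arrays, and with acinar and muscle levels as covariates the 12-week Per1 difference was 1.28 (adjusted p = 0.166).

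**Figure D2:**
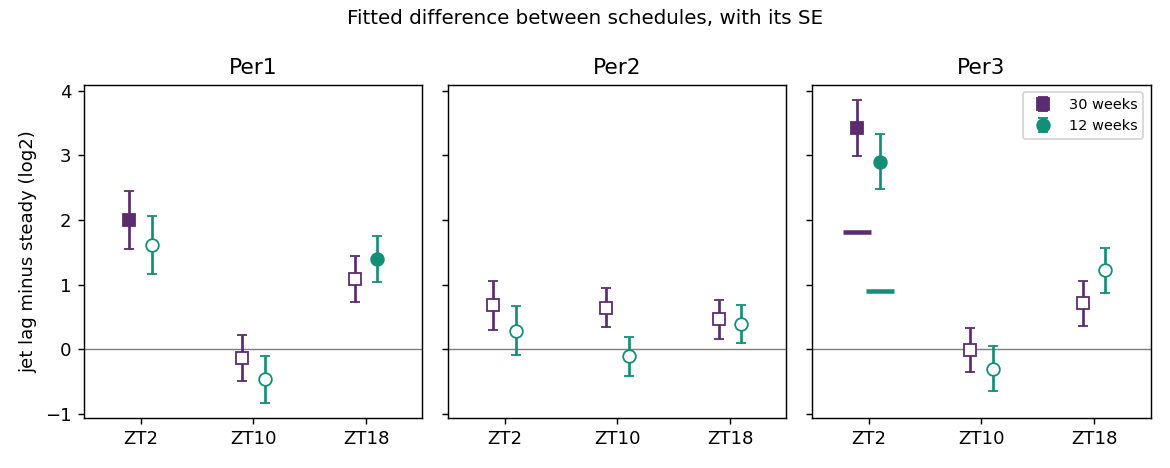
Fitted difference between jet-lagged and steady livers (log2, y axis) for each gene at ZT2, ZT10 and ZT18 (x axis), squares for 30 weeks and circles for 12 weeks, with error bars of 1 SE; filled symbols passed an adjusted p under 0.05. Short bars in the Per3 panel are the lower bounds at ZT2. Per1 and Per3 stand above 0 at ZT2 and ZT18 and between -0.46 and -0.01 at ZT10, and Per2 stays between -0.11 and 0.68.

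Over the mean of the 3 times, all 3 members were higher under jet lag at 30 weeks, where 1.9% of genes were, and 2 of 3 at 12 weeks, where 1.97% were. Per3 was higher by 1.38 ± 0.20 at 30 weeks (at least 1.79-fold, adjusted p = 0.00027) and by 1.28 ± 0.20 at 12 weeks (at least 1.5-fold, adjusted p = 0.00142), and both calls held on leaving out any 1 mouse. With normexp background correction Per3 had 0.34 at 30 weeks (adjusted p = 0.0524) and 0.31 at 12 weeks (adjusted p = 0.0828). Per1 was higher by 0.99 ± 0.21 at 30 weeks (1.98-fold, adjusted p = 0.00636) and by 0.85 ± 0.21 at 12 weeks (1.80-fold, adjusted p = 0.0255). The Per1 call was lost at 30 weeks without jet-lagged ZT2 mouse 1 (0.86, adjusted p = 0.0524), and at 12 weeks in 6 of 32 fits, down to 0.46 (adjusted p = 0.15) without jet-lagged ZT2 mouse 2. The others were without steady ZT2 mouse 1 or 2, steady ZT10 mouse 3, jet-lagged ZT10 mouse 3 or steady ZT18 mouse 3 (0.76 to 0.88, highest adjusted p = 0.0782). Without the acinar-rich arrays, which leaves single mice in some of its groups, the 12-week Per1 difference was 1.29. Per2 was higher by 0.59 ± 0.18 at 30 weeks (adjusted p = 0.047), a call lost in 23 of 32 fits that left out a mouse, and differed by 0.19 ± 0.18 at 12 weeks (adjusted p = 0.588). Without jet-lagged ZT2 mouse 1 the Per2 difference of 30 weeks was 0.37 (adjusted p = 0.322). The median difference over all genes was -0.01 at 30 weeks and 0.02 at 12 weeks.

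Between ages no member was called. None of the 3 passed limma's test between 30 and 12 weeks in jet-lagged livers, where 4.99% of genes were called, or in steady livers, where 0.904% were, and at an unadjusted p under 0.05 there was 1 member in jet-lagged and 0 in steady livers. That member was Per2 in jet-lagged livers, with a difference of 0.58 ± 0.18 (adjusted p = 0.0574), against 0.18 ± 0.18 in steady livers (adjusted p = 0.825). Leaving out the jet-lagged ZT2 mouse 2 of 30 weeks, which leaves 1 mouse in that group, made the jet-lagged difference 0.81. Per1 differed by 0.18 ± 0.21 in jet-lagged and 0.04 ± 0.21 in steady livers, and Per3 by 0.33 ± 0.20 and 0.23 ± 0.20. The change of the schedule effect with age was 0.14 ± 0.30 for Per1, 0.40 ± 0.25 for Per2 and 0.10 ± 0.29 for Per3. None of these 3 was called by limma, where 0.00865% of genes were, with 0 members at an unadjusted p under 0.05.

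Whether the daily course differed between schedules was tested as schedule by time of day, with the size given as the range of the schedule difference over the 3 times. Per3 was called at 30 weeks (3.43, adjusted p = 0.00525) and at 12 weeks (3.20, adjusted p = 0.01), so that 1 of 3 members was called at each age, against 1.91% of genes at 30 weeks and 1.9% at 12 weeks. Per1 had 2.14 at 30 weeks (adjusted p = 0.117) and 2.08 at 12 weeks (adjusted p = 0.0671). Per2 had 0.21 at 30 weeks (adjusted p = 0.975) and 0.50 at 12 weeks (adjusted p = 0.778). Without jet-lagged ZT2 mouse 2 of 12 weeks the Per3 size was 2.64 and that of Per1 1.70, and without mouse 1 of that group Per1 had 3.15. Each of these fits leaves 1 mouse in the group, so only sizes are given. The 12-week Per3 call did not hold without mouse 2. Per1 passed at 12 weeks without steady ZT18 mouse 1 (2.27, adjusted p = 0.0405) and with normexp (1.76, adjusted p = 0.0371). It also passed among probes well above background on all arrays (2.08, adjusted p = 0.0433). Without the acinar-rich arrays, which leaves single mice in some groups, Per1 had 3.01 at 12 weeks. At 30 weeks Per1 passed in the authors' deposited table (2.30, adjusted p = 0.00989). Without either jet-lagged ZT2 mouse of 12 weeks its 30-week size was 2.29. Those mice are outside this comparison, and a group left with 1 mouse adds nothing to the pooled spread. Without the 10 arrays above 0 for the acinar markers the Per3 sizes were 3.61 at 30 weeks and 3.16 at 12 weeks. The Per3 calls were lost in that fit, which leaves single mice in some groups. With slide as a fixed term the Per3 sizes were 3.22 (adjusted p = 0.0742) and 3.17 (adjusted p = 0.0968). With normexp background correction they were 0.82 at 30 weeks (adjusted p = 0.334) and 0.66 at 12 weeks (adjusted p = 0.467). The Per3 range in steady livers includes a time at which the probe was not well above background.

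From plain group means, the jet-lagged daily range of Per1 was 45.5% of the steady range at 30 weeks and 50.6% at 12 weeks. For Per2 it was 89.5% at 30 weeks and 98.8% at 12 weeks. For Per3 it was 22.8% at 30 weeks and 35.8% at 12 weeks, or 34.9% and 61.6% with the steady ZT2 arrays raised to the background level. These shares rest on 2 jet-lagged ZT2 mice each. Without the acinar-rich mouse 1 of 12 weeks Per1 had 24.9%, Per2 103% (91.8% raised) and Per3 25.5% (43.9% raised), and without mouse 2 of that group 76.4%, 94.4% and 46.1% (79.2% raised). At 30 weeks Per1 had 57.3%, Per2 126% and Per3 42.0% (64.3% raised) without mouse 1, and 33.7%, 52.9% and 11.6% (17.7% raised) without mouse 2. The jet-lagged Per3 mean at ZT2 was -2.29 (30 weeks) and -3.13 (12 weeks), against -5.71 and -6.16 in steady livers of those ages (not well above background), while at ZT10 it was -1.24 and -1.31, against -1.09 and -1.08.

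**Figure D3:**
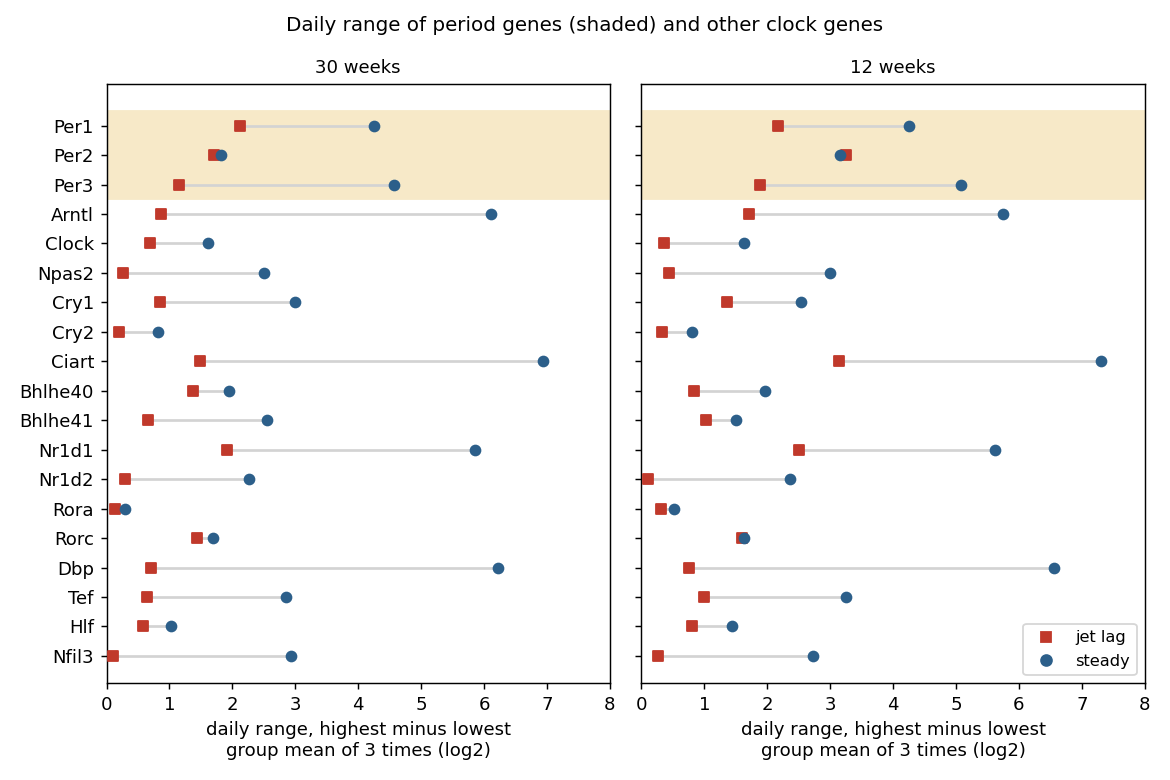
Fitted daily range (highest minus lowest of the 3 group means, log2, x axis) of the period genes (shaded) and 16 other clock genes (rows), with 30 weeks on the left and 12 weeks on the right, red squares for jet-lagged and blue circles for steady livers. The Per2 ranges lie close together (1.70 under jet lag and 1.82 steady at 30 weeks), while those of Dbp lie far apart (0.70 under jet lag and 6.22 steady); some low points lie at background.

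The members were also compared with each other on the same array, which cancels anything that scales a whole array. For each pair the within-array log2 difference was set between schedules at each time by a two-sided exact permutation test of the schedule labels within ages, giving 9 tests, and none passed after Benjamini-Hochberg adjustment (lowest adjusted p = 0.1). At ZT2 the difference Per2 minus Per3 ran from -0.81 to 0.58 in 4 jet-lagged livers and from 2.04 to 3.6 in 4 steady livers. The means differed by -2.68 and p was 0.0556, the smallest that 36 permutations allow. Since Per3 was not well above background in any of those steady mice, these sizes are not exact. With every level not well above background raised to its array's background level, Per2 minus Per3 ran from -0.44 to 0.58 in jet-lagged and from 0 to 1.72 in steady livers, which overlapped, and the means differed by -0.80 (permutation p = 0.111, adjusted p = 0.2). Per1 minus Per3 differed by -1.36 at ZT2 as measured (permutation p = 0.0556, adjusted p = 0.1), but by 0.50 with the raised levels (permutation p = 0.278, adjusted p = 0.33) and by 0.81 with normexp (adjusted p = 0.167), so that its sign was not settled. Per1 minus Per2 differed by 1.32 (permutation p = 0.111, adjusted p = 0.166).

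With 6 mice per schedule at ZT10 and ZT18, 400 permutations allow p as low as 0.005. At ZT18 Per1 minus Per2 averaged 3.42 ± 0.45 in jet-lagged and 2.54 ± 0.56 in steady livers (SD, n = 6 each), a difference of 0.88 (permutation p = 0.025, adjusted p = 0.1). At the same time Per2 minus Per3 averaged 1.62 ± 0.41 in jet-lagged and 2.20 ± 0.47 in steady livers, a difference of -0.58 (permutation p = 0.035, adjusted p = 0.1). At ZT10 the sign of the first pair turned: Per1 minus Per2 averaged 3.81 ± 0.46 in jet-lagged and 4.44 ± 0.44 in steady livers, a difference of -0.63 (permutation p = 0.03, adjusted p = 0.1). Per1 minus Per3 differed by 0.30 at ZT18 (permutation p = 0.295, adjusted p = 0.33) and -0.17 at ZT10 (permutation p = 0.33, adjusted p = 0.33). Each probe has its own brightness, so these values do not rank the genes by RNA amount.

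**Figure D4:**
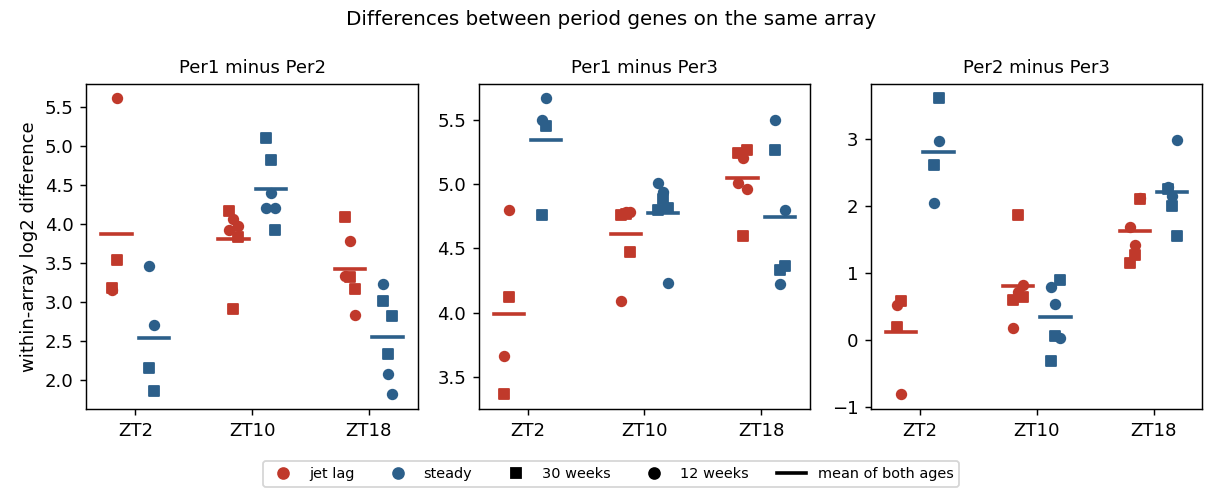
Within-array difference between pairs of period genes (log2, y axis) at ZT2, ZT10 and ZT18 (x axis), 1 point per mouse, red for jet-lagged and blue for steady livers, squares for 30 weeks and circles for 12 weeks, with bars at the mean of both ages. At ZT2 Per2 minus Per3 is plotted as measured (-0.81 to 0.58 in jet-lagged and 2.04 to 3.6 in steady mice), with Per3 not well above background in the steady mice; with levels raised to background the schedules overlap (-0.44 to 0.58 and 0 to 1.72).

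Arntl and Clock, whose products drive the period genes, had smaller daily ranges under jet lag. Of the activator list (3 of 4 genes measured: Arntl, which encodes BMAL1, Clock and Npas2) 0 passed the time-of-day test in jet-lagged livers and 3 in steady livers at each age, by limma at an adjusted p under 0.05. At an unadjusted p under 0.05 there was 1 of them in jet-lagged livers of either age. The time-of-day test called 3.67% of all genes in jet-lagged and 11.2% in steady livers at 30 weeks. At 12 weeks it called 5.63% in jet-lagged and 17.5% in steady livers, and these shares also apply to the lists below. For Arntl the range was 0.87 in jet-lagged and 6.11 in steady livers at 30 weeks, where its low group, steady ZT10, was well above background on 1 of 3 arrays, so that the steady range and the schedule difference at ZT10 rest on a level near background. For Clock the range was 0.70 in jet-lagged and 1.61 in steady livers. Npas2 was well above background on every array of the steady ZT2 groups alone. It therefore entered the test only through those groups, and its calls in steady livers add no support. At ZT2 of 30 weeks Arntl was lower under jet lag by 2.49 ± 0.63 (adjusted p = 0.0479). At ZT10 of 30 weeks it was higher under jet lag by 2.75 ± 0.50 (adjusted p = 0.0148), and at ZT18 lower by 2.18 ± 0.50 (adjusted p = 0.0157).

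Of the D-box factors (4 of 4 measured), 0 passed the time-of-day test in jet-lagged and 4 in steady livers at 30 weeks by limma, and 2 in jet-lagged and 4 in steady livers at 12 weeks. At an unadjusted p under 0.05 there were 2 in jet-lagged livers of 30 weeks. Their median range was 0.61 in jet-lagged and 2.89 in steady livers at 30 weeks, and 0.79 in jet-lagged and 2.99 in steady livers at 12 weeks. At ZT2 of 30 weeks Dbp was higher under jet lag by 4.47 ± 0.53 (adjusted p = 0.000178) and Tef by 1.93 ± 0.25 (adjusted p = 0.00021), both activators at D-boxes. Nfil3, which represses through the same site, was lower by 1.56 ± 0.32 (adjusted p = 0.0142). At 12 weeks Dbp had 4.33 ± 0.53, Tef 1.76 ± 0.25 and Nfil3 -1.66 ± 0.32 at ZT2, all called. Schedule by time of day was called for 3 of 4 at each age, against 1.91% of all genes at 30 weeks and 1.9% at 12 weeks.

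Among the 7 other repressors of the activators (all measured), 1 passed the time-of-day test in jet-lagged livers and 5 in steady livers at each age. Cry1, the partner of the period proteins in repression, had a range of 0.85 in jet-lagged and 2.99 in steady livers at 30 weeks, where it was well above background on 1 of 3 arrays of its low group, steady ZT10. It was lower under jet lag at ZT18 of 30 weeks by 1.62 ± 0.34 (adjusted p = 0.00932), and higher at ZT10 of 12 weeks by 1.57 ± 0.34 (adjusted p = 0.0197). Of the 5 REV-ERB and ROR receptors, 1 passed the time-of-day test in jet-lagged and 3 in steady livers at 30 weeks, and 2 in jet-lagged and 3 in steady livers at 12 weeks. Nr1d2, which encodes REV-ERBβ, was higher under jet lag at ZT18 by 1.73 ± 0.24 at 30 weeks (adjusted p = 0.000346) and by 1.83 ± 0.24 at 12 weeks (adjusted p = 0.000169).

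Of 13 measured genes of PER and CRY turnover, 1 passed the time-of-day test in jet-lagged and 2 in steady livers at 30 weeks, and 1 in jet-lagged and 4 in steady livers at 12 weeks. The median range of the list was 0.16 in jet-lagged and 0.20 in steady livers at 30 weeks, under the medians of all genes. One with a wide range was Usp2, a deubiquitinase known to act on clock proteins, whose range was 1.96 in jet-lagged and 5.83 in steady livers at 30 weeks. Usp2 was higher under jet lag at ZT2 of 30 weeks by 3.61 ± 0.47 (adjusted p = 0.00021).

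The outside inputs to Per1 and Per2 were described by 3 further lists. Of 13 glucocorticoid response genes, 5 passed the time-of-day test in jet-lagged and 6 in steady livers at 30 weeks, and 4 in jet-lagged and 7 in steady livers at 12 weeks. Their median range was 1.01 in jet-lagged and 1.13 in steady livers at 30 weeks, and 0.91 in jet-lagged and 0.74 in steady livers at 12 weeks. Fkbp5, a chaperone induced by glucocorticoids, was higher under jet lag over the mean of the 3 times by 0.68 ± 0.12 at 30 weeks (adjusted p = 0.00123) and 0.65 ± 0.12 at 12 weeks (adjusted p = 0.004). Over that mean 3 of the 13 were higher and 1 lower at 30 weeks, and 4 higher and 0 lower at 12 weeks. Of all genes 1.9% were higher and 4.2% lower at 30 weeks, and 1.97% higher and 2.39% lower at 12 weeks. The called genes of 30 weeks included Mt1, a metallothionein, which was higher by 0.95 ± 0.19 (adjusted p = 0.00305), and Tat, tyrosine aminotransferase, which was lower by 0.39 ± 0.09 (adjusted p = 0.0137).

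Of 11 measured genes of the heat shock factor 1 response and its cold-induced counterparts, 3 passed the time-of-day test in jet-lagged and 7 in steady livers at 30 weeks, and 5 in jet-lagged and 8 in steady livers at 12 weeks. Hsp90aa1, a chaperone, had a range of 0.62 in jet-lagged and 1.64 in steady livers at 30 weeks, and for Hspa8 it was 0.66 in jet-lagged and 0.65 in steady livers. Of 13 measured CREB and immediate early genes, 1 passed the time-of-day test in jet-lagged and 3 in steady livers at 30 weeks, and 3 in jet-lagged and 4 in steady livers at 12 weeks. Over the mean of the 3 times, 0 of these 13 passed at 30 weeks by limma, with 0 at an unadjusted p under 0.05, and at 12 weeks 1 was lower under jet lag, Egr1, by 1.85 ± 0.44 (adjusted p = 0.0207).

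Likeness to the members was read as Pearson's r over the 12 group means among 14082 genes with a symbol, as a description with no test, since the groups share times and schedules. The members themselves had r of 0.96 for Per1 and Per3, 0.85 for Per1 and Per2, and 0.79 for Per2 and Per3. The 5 genes most like Per1 were Stk35 (r = 0.98), Slc27a1 (0.98), Fzd4 (0.98), Usp2 (0.98) and Rab43 (0.97). Slc27a1 is a fatty acid transport protein and Fzd4 a Wnt receptor. For Per3 they were Tef (0.99), Psmb10 (0.96), Per1 (0.96), Crcp (0.96) and Sp8 (0.96). Tef had mean levels of 6.02 at ZT2, 6.67 at ZT10 and 6.56 at ZT18 in jet-lagged livers of 30 weeks, and of 4.09, 6.94 and 5.69 at the same times in steady ones. For Per2 they were Slc9a3r1 (0.97), Rhbdd2 (0.97), Zc3h8 (0.96), Cyp7a1 (0.96), whose enzyme limits the rate at which bile acids are made, and Fam102a (0.955). None of these 5 was also among the 5 most like Per1 or Per3. Genes with the most opposite pattern included Mitf (-0.97) and Map3k1 (-0.96) for Per1, and the 3 most opposite were Pclaf (-0.96), Rapgef2 (-0.95) and Tspan18 (-0.94) for Per2, and Grk5 (-0.96), Wdr59 (-0.96) and Chka (-0.95), which encodes choline kinase, for Per3.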

How the data were processed

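Liver RNA of 32 mice was read on 32 1-colour Agilent arrays (8 slides of 4). Per the file headers, the deposited processed intensity values came from Feature Extraction 11.0.1.1, background-subtracted, while the submitters' processing notes name version 9.1. The authors' deposited table of log2 values, whose scaling is not stated in the sources used here, lists 16795 rows with Per1 and Per2 and served as an alternative.

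Here, log2 of the processed intensity minus each array's 75th percentile was used, control spots were left out and no probe was saturated. Probes well above background on every array of at least 1 group were kept (30487), and the brightest stood for a gene (23109 genes). limma 3.58.1 in R 4.3.3 fitted 12 group means with slide as a random block (correlation 0.2495), with 17 comparisons and 12 between single times, Benjamini-Hochberg adjustment and an adjusted p under 0.05 as a call; it was tested on simulated data. The number of arrays limits the precision, and p-values measure the spread between mice.

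The files hold no mean signal, so normexp (offset 50) ran on the median signal. Other alternatives were the slide and mouse number terms, quantile normalization, filters, the mean of probes, marker covariates, leaving out mice or acinar-rich arrays, and raising levels not well above background to it. Named genes are the members, the 5 most like and 3 most unlike each, and called genes of each list with the largest change, of which 1 gene is not reported here; members and lists were chosen with earlier results of these data known. Mice sharing a label number did not vary together (median correlation of deviations -0.01, with 31 of 160 pairs over 0.1), so the numbers were not taken as pairs.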

Additional observations from a re-analysis of the deposited data

Results flagged for a closer look

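The daily course of Per3 differed between schedules by a direct test of that difference, schedule by time of day, at both ages. At 30 weeks the jet-lagged minus steady difference of Per3 varied by 3.43 (log2) over the 3 times (limma, adjusted p = 0.00525), with fitted differences of 3.42 at ZT2, -0.01 at ZT10 and 0.71 at ZT18. At 12 weeks it varied by 3.20 (adjusted p = 0.01), with 2.90 at ZT2, -0.30 at ZT10 and 1.22 at ZT18. The median of this size over all genes was 0.36 at 30 weeks and 0.38 at 12 weeks. Across the alternatives other than leaving out a mouse, the size ran from 0.82 to 3.61 at 30 weeks and from 0.66 to 3.26 at 12 weeks, lowest with normexp background correction. The call was lost at both ages with normexp (adjusted p = 0.334 at 30 weeks and 0.467 at 12 weeks) and with slide as a fixed term (adjusted p = 0.0742 and 0.0968). At 12 weeks it was lost with marker covariates (adjusted p = 0.0764). It was also lost at both ages without the acinar-rich arrays, a fit that leaves single mice in some groups. On leaving out any 1 mouse the size ran from 2.61 to 4.38 at 30 weeks and from 2.64 to 3.69 at 12 weeks. The 12-week call did not hold without jet-lagged ZT2 mouse 2 (2.64), which leaves 1 mouse in that group. Per3 was not well above background in the steady ZT2 mice, and the part of the background level in the size was not tested beyond these alternatives.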

How the results depend on the processing

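Outside the fits that left out a mouse, 792 values of single genes kept direction and call, 55 lost the call, 7 gained it and 16 changed sign. The cause of a change was not tested. Without a slide block, 0 members were called at ZT18 of 12 weeks and 1 over the mean of 12 weeks. With slide as a fixed block, 0 were called at ZT18 and ZT2 of 12 weeks and in schedule by time of day at both ages, and 1 at ZT2 of 30 weeks; at ZT10 of 30 weeks Per1 had 0.13 and Per3 0.21, and Per2 had -0.010 between ZT18 and ZT10 in steady mice of 30 weeks. With normexp, 0 were called at ZT2 of 12 weeks and in schedule by time of day of 30 weeks, and 1 at ZT2 of 30 weeks and over the mean at each age; Per3 between ages in steady mice had -0.0091, and Per1 minus Per3 at ZT2 had 0.81. With levels not well above background raised to that level, an alternative chosen after seeing the data, Per1 minus Per3 at ZT2 had 0.50. Between ZT18 and ZT10 in jet-lagged mice of 30 weeks, Per2 had 0.063 with normexp, 0.0096 with marker covariates and 0.36 without acinar-rich arrays, and in the authors' deposited table Per2 had 0.10 and Per1 0.29. Without a dim-probe filter 0 were called at ZT18 of 12 weeks.

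Both alternatives on acinar markers were chosen after seeing the data. Leaving out the acinar-rich arrays leaves 1 mouse in the jet-lagged ZT2 and ZT10 groups of 12 weeks. It also leaves 1 mouse in the jet-lagged ZT10 group of 30 weeks and in the steady ZT18 group of 12 weeks. The counts of that fit therefore rest in part on single mice. With acinar and muscle covariates 0 members were called at ZT18 of 12 weeks and in schedule by time of day of 12 weeks, and at ZT10 Per2 had 0.060 at 12 weeks and Per3 0.14 at 30 weeks. Without the 10 acinar-rich arrays 0 were called at ZT18 of 12 weeks and in schedule by time of day of 30 weeks, 1 at ZT18 of 30 weeks, 2 at ZT2 of 12 weeks and 1 for time of day in jet-lagged mice at each age. Between ages in jet-lagged mice Per1 then had -0.048 and Per3 -0.093, schedule by age was -0.22 for Per1 and -0.43 for Per3, and Per3 at ZT10 of 12 weeks was 0.23.

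Leaving out each mouse gave 0 to 1 members called between ages in jet-lagged mice, 0 to 2 at ZT18 and at ZT2 of 12 weeks, 0 to 1 at ZT18 and 1 to 2 at ZT2 of 30 weeks, 1 to 2 over the mean of 12 weeks and 1 to 3 of 30 weeks, 1 to 2 in schedule by time of day of either age, 1 to 3 for time of day in jet-lagged mice of 12 weeks and 0 to 3 of 30 weeks, and 3 in steady mice at each age. No member was called by limma in any such fit at ZT10, between ages in steady mice or in schedule by age. Per1 minus Per2 ran from 0.71 to 1.94 at ZT2, -0.81 to -0.45 at ZT10 and 0.74 to 1.09 at ZT18, Per1 minus Per3 from -1.64 to -1.08, -0.29 to -0.05 and 0.14 to 0.46 at these times, and Per2 minus Per3 from -3.01 to -2.35, 0.25 to 0.63 and -0.72 to -0.45. Values that changed sign ran as follows: between ages Per1 from -0.20 to 0.57 in jet-lagged and -0.036 to 0.16 in steady mice; schedule by age Per1 from -0.25 to 0.52 and Per3 from -0.19 to 0.39; Per2 between ZT18 and ZT10 at 30 weeks from -0.33 to 0.30 in jet-lagged and -0.10 to 0.36 in steady mice; Per2 at ZT2 of 12 weeks from -0.092 to 0.67; Per3 between ZT18 and ZT2 in jet-lagged mice of 30 weeks from -0.41 to 1.36; Per3 at ZT10 of 30 weeks from -0.092 to 0.087.

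With the mouse number as a replicate block, Per2 over the mean of 30 weeks (0.60, adjusted p = 0.0542) and Per3 between ZT18 and ZT2 in jet-lagged mice of 12 weeks (1.36, adjusted p = 0.0518) lost their calls, and no count of members called moved by over 1.5 times. Each member had 1 probe, so no other probe could be tried; with probes well above background on all 32 arrays Per2 and Per3 drop out, and the authors' deposited table does not list Per3. ZT2 groups of 2 mice and Per3 signals near background limit the precision.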
